A study of Rattus norvegicus with 10 samples.

Results

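Collagens, laminins and the other secreted proteins of fibroblast matrix were followed at the mRNA level in the rat hippocampus after traumatic brain injury (TBI). The genes were taken from a list of 48 symbols: fibrillar and other collagens, basement membrane components, fibronectin and elastic fibre proteins, small leucine-rich proteoglycans, matricellular proteins, and proteins that fold or crosslink collagen. A gene was kept if its RefSeq record was in the count table and held at least 44 counts over the 10 libraries. Of the 48 genes, 36 had a record and 33 were kept, among 22431 rows kept in all. Col8a1, Postn and Thbs4 fell below the limit with totals of 23, 35 and 37 counts, while the kept gene nearest to it, Ogn, had 183. The other 12 (Col4a2, Lama2, Lama3, Lama4, Nid1, Fbln2, Col5a2, Col6a1, Col6a3, Col12a1, Col16a1 and Lox) are not analysed here.

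All animals were adult male Sprague-Dawley rats that weighed 330 to 371 g at surgery. In 5 rats TBI was induced by lateral fluid percussion, a pressure pulse of 3.32 atm delivered to the intact dura through an opening in the skull over the left parietal lobe. The 5 sham rats of the labels had the same anaesthesia and craniectomy without the pulse, so both groups carry the surgery and the impact sets them apart. The tissue is labelled dorsal hippocampus. A piece of the left side with CA3 and dentate gyrus was taken 3 months later, and each library was made from poly-A RNA of 1 rat. The tissue was not sorted, so more or fewer cells of a type and more or less RNA per cell cannot be told apart in these values.

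The extracellular matrix of the brain differs from that of most organs. Fibrillar collagens are scarce in the neuropil and are made mainly by fibroblasts of the meninges and around larger vessels. Basement membranes, sheets of laminin, type IV collagen and nidogen, wrap the vessels and underlie the pial surface, and are built by endothelial cells, pericytes and astrocytes. After injuries that breach the meninges, fibroblasts can lay down a collagen-rich scar, and astrocytes form a laminin-containing border beside it.

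Libraries held 23425817 to 31671838 counts on RNA records. Ribosomal RNA took 59.0% of counts in sham rat 4 and 58.5% in sham rat 5, against 12.5% to 26.2% in the other 8 rats. Markers of the dissected areas were present in every library: summed levels of dentate granule neuron markers ranged from 61.2 to 214 CPM in sham and 84.9 to 202 CPM in TBI rats, and those of CA3 pyramidal neurons from 291 to 456 CPM and 269 to 388 CPM. CPM is the count scaled to a common library size after TMM normalization, which evens out library composition. Sham rat 1 was lowest for the dentate and highest for the CA3 markers. In some of the genes described below, among them Lamb2, Fbln1 and Serpinh1, sham rat 3 was the highest sham rat and TBI rat 3 the lowest TBI rat. In Col1a1, Col1a2 and Col6a2 TBI rat 4 was the lowest TBI rat instead. Gfap, the intermediate filament of astrocytes, was 1628 CPM in sham rat 3 against 776 to 910 CPM in the other sham rats. It was 980 CPM in TBI rat 3 against 1704 to 2308 CPM in the other TBI rats. Whether the labels of this pair are right could not be settled from these values, and the group means, differences and overlaps below rest on the labels as given. Without sham rat 3, and likewise without TBI rat 3, all 8 genes singled out below kept their direction and stayed under an unadjusted p of 0.05. Sham rat 3 was the highest sham rat in all 7 of these that were higher in TBI rats. It was the lowest sham rat for Lamb1, the 1 that was lower. Leaving it out therefore widens the group differences and does not test the labels. No fit with exchanged labels was made.

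The comparison of TBI with sham rats asked which of the 33 matrix genes differ 3 months after the injury. Type I collagen, laminin beta 2, fibulin 1 and thrombospondin 2 were among the genes higher in TBI rats at an unadjusted p under 0.05, Fbln1 by 0.40 and Col1a2 by 0.77 on the log2 scale. Laminin beta 1 was lower at that threshold, and Col4a1, a chain of type IV collagen, had nearly the same level in both groups. In edgeR's quasi-likelihood test with Benjamini-Hochberg adjustment over all rows, 0 of the 33 genes passed an adjusted p of 0.05, and 0 of the 22431 rows did so (0%), while 1769 rows had an unadjusted p under 0.05. DESeq2 called 3 rows, none of them among the 33 genes, and limma voom 0. Genes are therefore also sorted by whether their unadjusted p was under 0.05.

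At an unadjusted p under 0.05, 7 of the 33 genes (21.2%) were higher in TBI rats, where 4.89% of all rows were. In the other direction, 1 gene (3.03%) was lower, close to the 3% of all rows. The list was chosen with earlier results of these data known, so these shares are described only and do not test the list. At the stricter unadjusted threshold of 0.001 there were 0 of the 33, while 0.196% of all rows passed it. The study, in its own edgeR fit, lists Lamb2 and Fbln1 as higher after TBI at that threshold. Its methods give 3 controls for this profiling, where 5 sham rats were used here. The levels of all 5 TBI rats lay above those of all 5 sham rats for 1 gene, Thbs2, and for 0.499% of all rows. For 0 genes did they lie below, as they did for 0.424% of rows. The median log2 difference over the 33 genes was 0.07, with 23 higher and 10 lower (26 higher when libraries were scaled by total counts outside ribosomal RNA), beside a median of -0.01 over all rows. Single genes ranged from -0.95 for Lum to 1.10 for Thbs1. With this scaling, which moved the median of all rows to 0.14, 11 genes were higher and 0 lower at an unadjusted p under 0.05, beside 12.5% and 0.464% of all rows. With the share of ribosomal RNA as a covariate, Lamb2 alone stayed under 0.05, at a log2 difference of 0.37, beside 2.45% of all rows higher and 1.97% lower. That share was 23.8% to 59.0% in sham and 12.5% to 25.5% in TBI rats. The covariate thus follows the group in part, and injury and ribosomal RNA share cannot be fully told apart in that fit. In that fit Col1a2 was 0.70, Fbln1 0.29, Thbs2 0.35, Col6a2 0.27, Col1a1 0.22, Serpinh1 0.19 and Lamb1 -0.12.

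**Figure D1:**
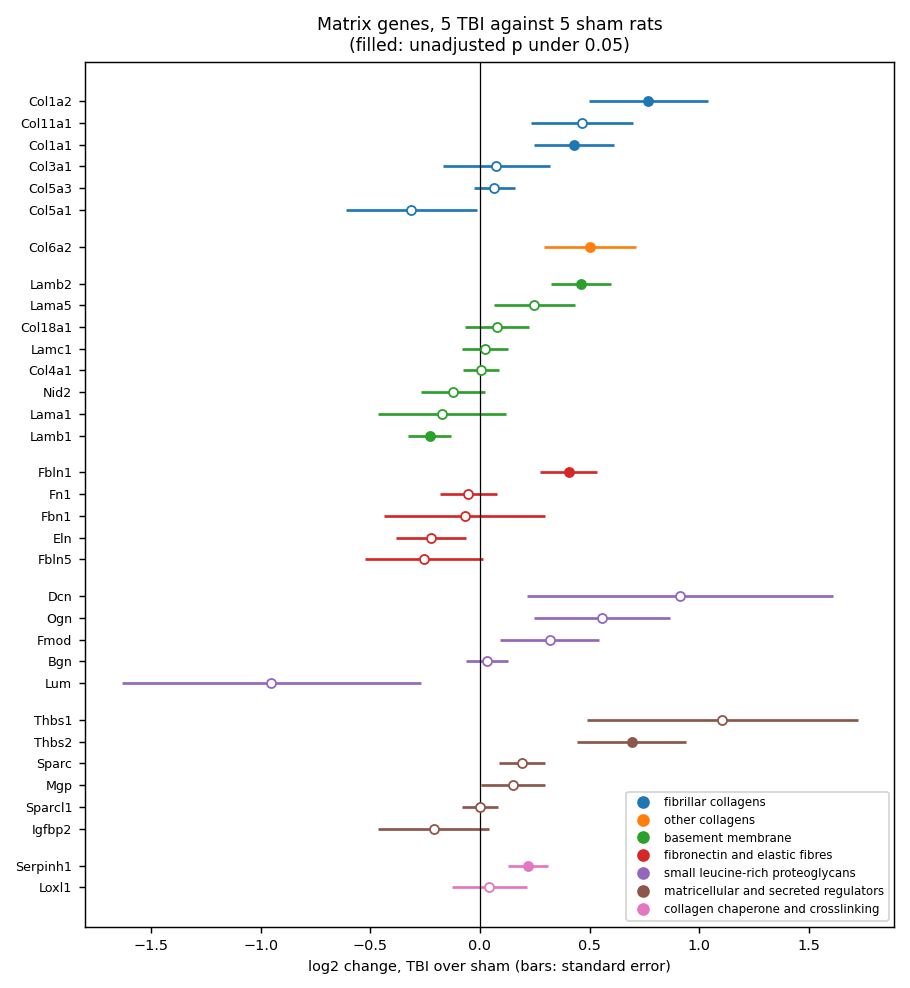
Log2 difference of TBI over sham rats for each of the 33 matrix genes (x axis, points; bars are standard errors), grouped by role and coloured as in the key. Filled points mark the 8 genes with an unadjusted p under 0.05, 7 to the right of 0 and Lamb1 to the left. Lum, Dcn and Thbs1 have the widest bars.

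The promoters of 21 of the 33 genes were held in the table of RefSeq promoters (assembly GRCr8). Those of Col1a2, Serpinh1 and Lamb1 are shown because these are the genes with an unadjusted p under 0.05 that had an entry, and because they include both directions. Each line gives the 250 bases before the annotated start of the gene, 5′ to 3′ on the strand of the gene. Matches to the GC box (GGGCGG), the CCAAT box (CCAAT) and the TATA box (TATAAA) on either strand are in capitals. Whether transcription begins at the annotated start was not checked, so part of a line may be transcribed. Col1a2 lies on the plus strand (chr4:33518307-33518556), Serpinh1 on the minus strand (chr1:163062977-163063226) and Lamb1 on the plus strand (chr6:53562846-53563095).
Col1a2: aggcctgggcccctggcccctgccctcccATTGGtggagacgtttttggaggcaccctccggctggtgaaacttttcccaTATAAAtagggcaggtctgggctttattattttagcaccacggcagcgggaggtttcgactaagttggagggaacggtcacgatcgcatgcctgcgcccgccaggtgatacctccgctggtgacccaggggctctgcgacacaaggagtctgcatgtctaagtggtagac
Serpinh1: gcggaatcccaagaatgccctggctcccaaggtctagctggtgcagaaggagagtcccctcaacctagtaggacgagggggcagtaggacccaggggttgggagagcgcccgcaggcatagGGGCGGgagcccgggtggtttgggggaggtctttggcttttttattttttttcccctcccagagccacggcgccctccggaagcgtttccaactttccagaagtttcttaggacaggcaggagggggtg
Lamb1: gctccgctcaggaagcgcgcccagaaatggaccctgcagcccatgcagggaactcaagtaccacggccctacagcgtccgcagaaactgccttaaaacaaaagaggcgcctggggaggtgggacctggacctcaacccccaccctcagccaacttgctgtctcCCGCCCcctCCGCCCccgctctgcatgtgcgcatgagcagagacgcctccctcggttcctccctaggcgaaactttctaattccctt
Col1a2 held a CCAAT box on the opposite strand and a TATA box. Serpinh1 held a GC box, and Lamb1 held a pair of them on the opposite strand. A GC box was found in 13 of the 21 promoters (61.9%) and in 32.4% of all 27457 promoters in the table. The CCAAT box was in 7 (33.3%, against 34.3% of all) and the TATA box in 2 (9.52%, against 13.1%). A match describes the letters only. The 27457 promoters were not limited to genes with counts in these libraries, as the 21 were, so the shares do not compare like with like.

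Fibrillar collagens form the tensile fibres of connective tissue, and 6 of the 7 listed were measured. Of these 5 were higher and 1 lower in TBI rats, 2 of them at an unadjusted p under 0.05. Col1a2, the alpha 2 chain of type I collagen, was 1.09, 1.04, 1.62, 1.56 and 0.625 CPM in sham rats 1 to 5. In TBI rats 1 to 5 it was 3.04, 2.24, 1.79, 1.01 and 2.12 CPM. Of the 5 TBI rats 4 lay above every sham rat, and TBI rat 4 lay among the lowest. The means were 1.19 ± 0.412 and 2.04 ± 0.737 CPM (SD, n = 5 each), a log2 difference of 0.77 ± 0.269 (SE; edgeR adjusted p = 0.511). The promoter of Col1a2 is the one above with the TATA box.

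Col1a1, which encodes the partner alpha 1 chain, was 4.81, 3.88, 5.91, 4.15 and 2.87 CPM in sham rats. In TBI rats it was 6.52, 7.90, 5.75, 4.14 and 5.26 CPM. The groups overlapped, with sham rat 3 above 3 of the TBI rats. The log2 difference was 0.43 ± 0.182 (SE; edgeR adjusted p = 0.589).

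The chains of the other fibrillar collagens did not pass an unadjusted p of 0.05. Col5a3, a chain of type V collagen, was 15.2 ± 1.85 CPM in sham and 15.9 ± 1.11 CPM in TBI rats (SD, n = 5 each), a log2 difference of 0.07 ± 0.0946 (SE). Col11a1, a chain of the type XI collagen that helps nucleate fibrils, was 2.49 ± 0.862 and 3.47 ± 0.996 CPM, and TBI rat 1 alone reached 5.22 CPM. Its log2 difference was 0.47 ± 0.232 (SE; edgeR adjusted p = 0.655), and 0.27 without TBI rat 1 or 0.29 without sham rat 1. Col3a1, the single chain of type III collagen, was 1.21 ± 0.410 and 1.31 ± 0.380 CPM. Col5a1 was 4.65 CPM in sham rat 3 and from 1.14 to 2.35 CPM in all other rats. Its log2 difference of -0.31 ± 0.298 (SE) became 0.12 without sham rat 3.

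Of the other collagens only Col6a2 could be tested. It encodes a chain of type VI collagen, which forms beaded filaments around cells and near basement membranes. Its level was 3.37, 3.31, 5.56, 2.11 and 3.19 CPM in sham rats, and 6.87, 5.38, 4.05, 3.86 and 5.31 CPM in TBI rats. Sham rat 3 was above 4 of the 5 TBI rats, and all other sham rats were below all TBI rats. The log2 difference was 0.50 ± 0.211 (SE; edgeR adjusted p = 0.589).

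**Figure D2:**
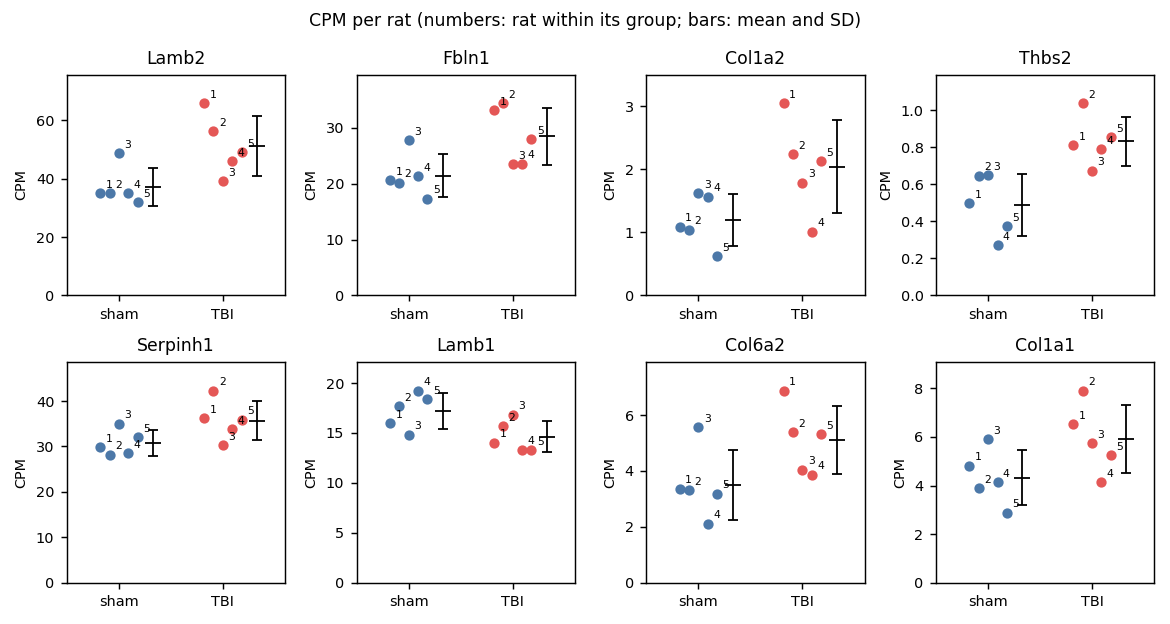
Level in CPM (y axis, from 0) of the 8 matrix genes with an unadjusted p under 0.05 in each sham rat (blue) and TBI rat (red). Small numbers name the rat within its group, and bars give the mean and SD of 5 rats. Thbs2 is the gene whose groups do not overlap, and sham rat 3 is the highest sham rat for all genes but Lamb1.

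Basement membranes were represented by 8 of 13 genes, of which 5 were higher and 3 lower, and of the latter Nid2 turned to 0.02 with the scaling by counts outside ribosomal RNA. A laminin is a trimer of an alpha, a beta and a gamma chain, and the beta chain may be beta 1 or beta 2. Lamb2 encodes laminin beta 2, known from vascular and synaptic basement membranes. Its level was 35.0, 35.0, 48.7, 35.0 and 31.9 CPM in sham rats 1 to 5, and 65.8, 56.2, 39.1, 45.9 and 49.1 CPM in TBI rats 1 to 5. The sham rats were close to each other except for rat 3, which alone reached into the range of the TBI rats. The means were 37.1 ± 6.59 and 51.2 ± 10.2 CPM (SD, n = 5 each). The log2 difference was 0.46 ± 0.137 (SE), with the smallest p of the 33 genes (edgeR adjusted p = 0.485). Without sham rat 3 it was 0.58, and the edgeR adjusted p = 0.0683 was still over 0.05.

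Lamb1, which encodes laminin beta 1, went the other way. It was 16.0, 17.7, 14.8, 19.2 and 18.4 CPM in sham rats, and 14.0, 15.7, 16.8, 13.3 and 13.3 CPM in TBI rats. Sham rat 3 was the lowest sham rat and TBI rat 3 the highest TBI rat. The log2 difference was -0.23 ± 0.0975 (SE; edgeR adjusted p = 0.589). With the scaling by total counts outside ribosomal RNA the difference of Lamb1 was -0.07, no longer under 0.05.

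The ratio of Lamb2 to Lamb1 counts within a library does not depend on scaling. This pair was chosen after its values were seen, so the ratio is described without a test. On the log2 scale it was 1.13, 0.99, 1.72, 0.86 and 0.80 in sham rats, and 2.23, 1.84, 1.22, 1.79 and 1.89 in TBI rats. The mean was 1.10 ± 0.37 in sham and 1.79 ± 0.37 in TBI rats (SD, n = 5 each). Sham rat 3 was the highest sham rat and TBI rat 3 the lowest TBI rat, and the groups overlapped through this pair.

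None of the other basement membrane genes was under an unadjusted p of 0.05. Lamc1, the gamma 1 chain shared by most laminins, was 24.7 ± 2.64 CPM in sham and 25.1 ± 3.84 CPM in TBI rats (log2 difference 0.02 ± 0.104 SE). Col4a1, a chain of the type IV collagen network, varied by only 1.18 times between the lowest and the highest of the 10 rats, with 16.2 ± 0.935 and 16.3 ± 0.925 CPM. Its log2 difference was 0.00 ± 0.0811 (SE; edgeR adjusted p = 0.997). The remaining 4 were Lama1 and Lama5, which encode laminin alpha chains, Nid2, a nidogen that links laminin to collagen IV, and Col18a1, the source of endostatin. Their log2 differences ran from -0.17 for Lama1 to 0.25 for Lama5. Single rats moved these values: Lama5 was 0.10 without TBI rat 1 and 0.16 without TBI rat 2, Lama1 ranged from -0.37 without TBI rat 5 to 0.01 without sham rat 5, and Nid2 was -0.01 without sham rat 3.

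Of 5 genes for fibronectin and elastic fibres, 1 was higher and 4 were lower in TBI rats, and of the latter Fn1 and Fbn1 were higher (0.09 and 0.07) with the scaling by counts outside ribosomal RNA. The higher one, Fbln1, encodes fibulin 1, a calcium-binding glycoprotein of elastic fibres and basement membranes. It was 20.6, 20.2, 27.8, 21.3 and 17.3 CPM in sham rats, and 33.1, 34.4, 23.4, 23.6 and 27.9 CPM in TBI rats. Without sham rat 3 the groups did not overlap. The means were 21.4 ± 3.87 and 28.5 ± 5.14 CPM (SD, n = 5 each), a log2 difference of 0.40 ± 0.131 (SE; edgeR adjusted p = 0.487).

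Fn1, which encodes fibronectin, was 21.8 ± 5.02 CPM in sham and 21.1 ± 1.90 CPM in TBI rats, a log2 difference of -0.05 ± 0.129 (SE). Sham rat 1 was the highest at 28.9 CPM and sham rat 5 the lowest at 14.9 CPM. Without sham rat 1 the difference of Fn1 was 0.07. Fbn1 (fibrillin 1), Fbln5 (fibulin 5) and Eln (elastin), all components of elastic fibres, had log2 differences from -0.26 to -0.07 and none was under an unadjusted p of 0.05. The lowest of these, Fbln5, was 0.00 without sham rat 1, and Eln was -0.11 without the same rat. Fbn1 was 5.53 CPM in sham rat 1 and 9.69 to 21.3 CPM in the others.

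Small leucine-rich proteoglycans bind collagen fibrils and set their thickness. All 5 listed were measured, 4 higher and 1 lower, with 0 at an unadjusted p under 0.05. Bgn (biglycan) was 16.3 ± 1.52 CPM in sham and 16.6 ± 1.86 CPM in TBI rats, a log2 difference of 0.03 ± 0.0972 (SE). Fmod (fibromodulin) was 3.43 ± 1.28 and 4.29 ± 0.987 CPM, with 0.32 ± 0.226 (SE; edgeR adjusted p = 0.777). Ogn (osteoglycin) had a log2 difference of 0.56 ± 0.310 (SE; edgeR adjusted p = 0.696). Without TBI rat 1 Ogn was 0.34, and without sham rat 1 Fmod was 0.55 and under an unadjusted p of 0.05.

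Lum (lumican) and Dcn (decorin) varied most from rat to rat in this group. Lum was 9.93, 3.02, 1.59, 1.77 and 0.687 CPM in sham rats, and 0.899, 1.38, 1.99, 3.38 and 1.74 CPM in TBI rats. Dcn was 1.53, 0.934, 2.76, 1.63 and 0.750 CPM in sham rats, and 5.51, 5.35, 1.17, 0.348 and 2.30 CPM in TBI rats. Rats high in one were not high in the other: TBI rats 1 and 2 had the highest Dcn, and sham rat 1 and TBI rat 4 the highest Lum. The log2 differences were -0.95 ± 0.682 for Lum and 0.91 ± 0.699 for Dcn (SE; edgeR adjusted p = 0.788 and adjusted p = 0.803). That of Lum was 0.02 without sham rat 1, and that of Dcn was 0.57 without TBI rat 1 and 0.58 without TBI rat 2.

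**Figure D3:**
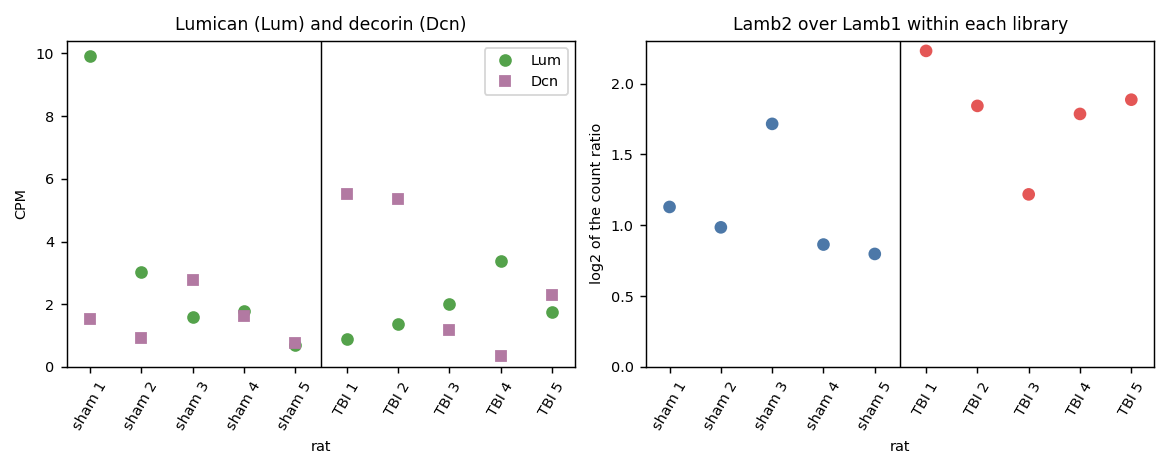
Left, level in CPM of Lum (circles) and Dcn (squares) in each rat. Right, log2 ratio of Lamb2 to Lamb1 counts within each library, sham rats in blue and TBI rats in red. Sham rat 1 stands alone in Lum at 9.93 CPM, and in the ratio sham rat 3 lies above TBI rat 3.

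Matricellular proteins act on cells through the matrix rather than as its fibres. Of 6 genes measured here with the secreted regulators, 5 were higher and 1 lower. Thbs2 encodes thrombospondin 2, a secreted glycoprotein that limits vessel growth and is one of the thrombospondins with which astrocytes promote synapse formation. It was 0.499, 0.647, 0.650, 0.272 and 0.375 CPM in sham rats, and 0.812, 1.04, 0.675, 0.791 and 0.855 CPM in TBI rats. The lowest TBI rat was just above the highest sham rat. The record held 212 counts over the 10 libraries, so that each value rests on few reads. The means were 0.489 ± 0.167 and 0.834 ± 0.132 CPM (SD, n = 5 each), with a log2 difference of 0.69 ± 0.246 (SE; edgeR adjusted p = 0.511). Both libraries rich in ribosomal RNA, sham rats 4 and 5, were the lowest, and without them the difference was 0.49 and no longer under an unadjusted p of 0.05.

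Thbs1, the closely related thrombospondin 1, was 0.968, 0.467, 0.520, 0.952 and 2.62 CPM in sham rats. In TBI rats it was 3.07, 2.98, 1.55, 0.348 and 2.87 CPM. The groups overlapped through sham rat 5 and TBI rat 4, and the log2 difference of 1.10 ± 0.617 (SE) had an edgeR adjusted p = 0.721.

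Sparc, a collagen-binding glycoprotein, was 385, 304, 327, 291 and 261 CPM in sham rats and 356, 416, 297, 367 and 357 CPM in TBI rats. The log2 difference was 0.19 ± 0.104 (SE; edgeR adjusted p = 0.684). Sparcl1 (hevin), its relative secreted by astrocytes, was 1232 ± 75.7 CPM in sham and 1232 ± 85.5 CPM in TBI rats, with a log2 difference of 0.00 ± 0.0813 (SE; edgeR adjusted p = 0.999) that had no stable sign across scalings. Mgp, an inhibitor of calcification, and Igfbp2, which binds insulin-like growth factors, had log2 differences of 0.15 and -0.21. That of Igfbp2 was -0.01 without sham rat 1 and -0.42 without TBI rat 3, and that of Mgp was 0.07 without sham rat 4.

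Collagen folding and crosslinking were represented by 2 genes. Serpinh1 encodes HSP47, the collagen-specific chaperone of the endoplasmic reticulum. It was 29.8, 28.2, 35.0, 28.5 and 32.1 CPM in sham rats, and 36.2, 42.3, 30.3, 33.8 and 35.9 CPM in TBI rats. Here too sham rat 3 lay among the TBI rats and TBI rat 3 among the sham rats. The means were 30.7 ± 2.85 and 35.7 ± 4.36 CPM (SD, n = 5 each), a log2 difference of 0.22 ± 0.0918 (SE; edgeR adjusted p = 0.589). Loxl1, an oxidase that crosslinks elastin, was 26.1 ± 6.94 and 27.0 ± 4.83 CPM, a log2 difference of 0.04 ± 0.170 (SE).

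The rats did not contribute equally to these differences. The highest level of all rats was in TBI rat 1 for 13 of the 33 genes, in TBI rat 2 and sham rat 1 for 6 each, and in sham rat 3 and TBI rat 3 for 3 each. The lowest was in sham rat 5 for 13, in sham rat 4 for 6, in TBI rat 4 for 5, and in sham rat 1 and TBI rat 5 for 3 each. Among the 7 genes higher in TBI rats at an unadjusted p under 0.05, sham rat 3 was the highest sham rat in all 7, and TBI rat 3 the lowest TBI rat in 4. The number of genes under 0.05 was 8 with all rats, where 4.89% of all rows were higher and 3% lower. It was 10 without sham rat 3 (7.03% and 4.41% of rows), 11 without TBI rat 3 (5.88% and 3.04%) and 4 without sham rat 4 (3.67% and 2.63%), so the share over all rows moved with it. Without sham rats 4 and 5, the libraries rich in ribosomal RNA, it was 4 (3.3% and 2.3% of rows): Col1a2, Fbln1, Lamb2 and Thbs1.

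**Figure D4:**
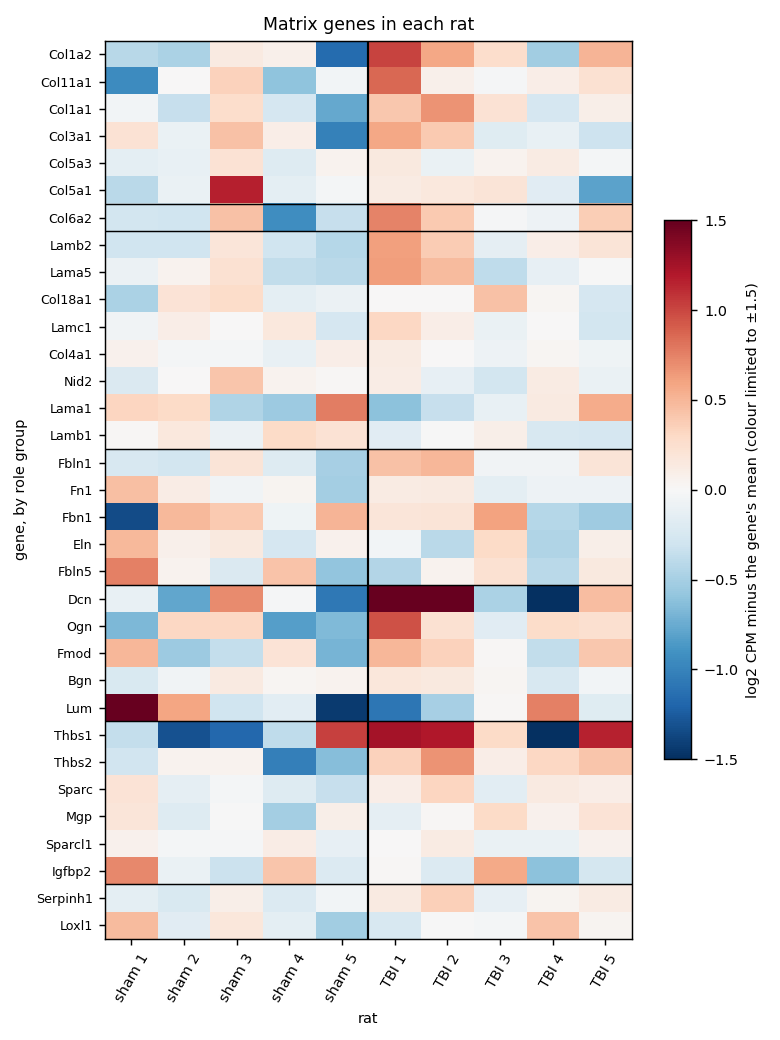
Log2 CPM of each matrix gene (rows, by role) in each rat (columns), minus the mean of that gene over the 10 rats, with colour limited to ±1.5. Red is above and blue below the mean. TBI rats 1 and 2 are above the mean in most genes and sham rat 5 below it in most, sham rat 1 holds both strong red and strong blue, and sham rat 3 is redder than the other sham rats in several collagens.

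The machinery around collagen was read from lists of genes outside the 33. Of 18 collagen processing enzymes tested (24 listed), 15 were higher, 4 of them (22.2%) at an unadjusted p under 0.05, beside 4.89% of all rows. These were Plod1 and Plod3, which hydroxylate lysines of procollagen (log2 differences 0.20 and 0.19), P3h1, which hydroxylates prolines (0.27), and the chaperone Fkbp10 (0.29). For Plod1 and Plod3 the groups did not overlap, as for 0.499% of all rows higher in TBI rats. P4ha1, a catalytic subunit of prolyl 4-hydroxylase, was the 1 enzyme lower at that threshold (-0.19), 5.56% of the list beside 3% of all rows. The median was 0.13, and 0 passed the adjusted threshold.

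Of 17 matrix receptors tested (23 listed), 15 were higher, 2 (11.8%) at an unadjusted p under 0.05, beside 4.89% of all rows. Ddr1, a receptor tyrosine kinase for collagen with 2 records in the table, was in the more abundant one 36.4, 34.1, 42.0, 33.9 and 34.8 CPM in sham rats, and 51.2, 50.1, 42.5, 46.0 and 42.5 CPM in TBI rats. The groups did not overlap in this record, and the log2 difference was 0.36 ± 0.0838 (SE; edgeR adjusted p = 0.477). Over all rows, 0.499% were higher without overlap. In the other record sham rat 3 had 1357 counts and TBI rat 3 had 1344, against 1294 and 1450 in the one shown. There the groups overlapped. Mrc2, an endocytic collagen receptor, had a difference of 0.75 ± 0.221 (SE; edgeR adjusted p = 0.487). Of 18 further collagen and basement membrane genes tested (34 listed), 13 were higher. Only Col23a1, a transmembrane collagen, was under 0.05 (0.59), a share of 5.56% that is close to the 4.89% of all rows. The medians were 0.10 and 0.24.

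Markers of cells that make or border this matrix were read beside these values. Over all rows, 4.89% were higher in TBI rats at an unadjusted p under 0.05. In lists this short, 1 marker makes a large share. Of 15 markers of meninges and fibroblasts tested (20 listed), 10 were higher and 5 lower. At an unadjusted p under 0.05, 4 were higher (26.7%: Ptgds, Slc6a13, Igf2 and Slc47a1) and 0 lower. Slc47a1 held only 49 counts over the 10 libraries. The summed level of the 15 markers was 149 to 179 CPM in sham and 187 to 208 CPM in TBI rats. Without Ptgds and Pdgfra, which other brain cells also express, the sums were 21.0 to 27.5 and 24.2 to 29.7 CPM. Summed markers of pericytes and smooth muscle were 78.7 to 103 and 93.4 to 120 CPM, with 2 of 12 (16.7%) higher at an unadjusted p under 0.05. Those of endothelium were 180 to 231 and 214 to 247 CPM, with 1 of 12 (8.33%). For choroid plexus the sums were 80.6 to 130 and 75.9 to 117 CPM (1 of 11, 9.09%). Most of that sum came from Enpp2, with 22480 counts over the 10 libraries, against 3959 for Ttr. Counts of Ttr before scaling were 102 in sham rat 3, 453 in sham rat 4 and 979 in TBI rat 4. The choroid plexus sum therefore does not show how far Ttr varied between rats. For ependyma the sums were 13.9 to 26.6 and 25.1 to 38.2 CPM (2 of 5, 40%).

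Summed astrocyte markers were 1703 to 2555 CPM in sham and 1861 to 3430 CPM in TBI rats. Over the 10 libraries most of that sum came from Gfap, with 446935 counts against 109430 for Slc1a3, the next. The sum therefore mainly shows how Gfap varied. Of 8 astrocyte markers 2 (25%, beside 4.89% of all rows) were higher at an unadjusted p under 0.05, Gfap by 0.82 ± 0.268 (SE; edgeR adjusted p = 0.514). Markers of microglia and macrophages summed to 185 to 297 and 223 to 316 CPM (4 of 13 higher, 30.8%). Those of blood summed to 190 to 353 and 275 to 430 CPM (2 of 5 higher, 40%). Neuron markers summed to 3358 to 4338 and 3313 to 4040 CPM. Of 7 neuron markers 1, Gad1, was lower at that threshold (14.3%, beside 3% of all rows). For dentate granule and CA3 neurons 0 of 4 markers each were under 0.05. All 4 dentate markers were lower in TBI rats, with log2 differences from -0.30 to -0.25 and a median SE of 0.35. Of the CA3 markers 2 were higher and 2 lower. No marker was at 0 in all libraries. The part of these cells in the differences of the matrix genes was not tested.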

How the data were processed

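Poly-A RNA of 5 sham and 5 TBI rats was read as single reads of 36 bases. Per the labels, the submitters' processing notes name BWA and the rat build rn4. The authors deposited unnormalized read counts for each RefSeq RNA record, one column per rat and none pooled. No source says that strand was used in counting, so overlapping transcripts are uncertain. Unmapped reads (12.8% to 26.1% per library) and an unnamed row were left out. Records were named from RefSeq genes of GRCr8, used for names and promoters only, which gave symbols to 57.7% of rows tested. Each of the 33 genes had 1 row.

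Rows with at least 44 counts in total (the 30th percentile) were tested with the robust quasi-likelihood F test of edgeR 4.0.16 (TMM, no covariates) in R 4.3.3, with Benjamini-Hochberg adjustment over 22431 rows. The standard error is the log2 difference divided by the square root of F. Alternatives used DESeq2 1.42.0, limma 3.58.1 with voom, the likelihood ratio test, other scalings and filters, a ribosomal RNA covariate, and left out each rat. The fit was tested on simulated data. Figures used matplotlib 3.10.9.

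Genes named in full were those with an unadjusted p under 0.05, the 2 of highest mean CPM per role, and those without overlap; others were named after their values were seen. The genes and lists were chosen with earlier results of these data known, so no test over a list was made. The methods of the study give 3 controls for mRNA profiling of this injury without saying which, while the labels and the table give 5 sham rats, and all 5 were used. Nothing in the labels gives a batch. The rats were separate animals, numbered within a group in sample order.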

Additional observations from a re-analysis of the deposited data

Results flagged for a closer look

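In each group of 5 rats, a level was looked at again where the gap between the highest or lowest rat and the next was large against the range of the group (Dixon's 95% limit). Of 66 groups checked over the 33 genes, 5 held such a rat, where chance gives 3.3 (about 1 in 20). Col11a1 was 5.22 CPM in TBI rat 1, against 2.79 to 3.34 CPM in the other TBI rats. Col5a1 was 4.65 CPM in sham rat 3, where no other sham rat was above 2 CPM. Lamb2 was 48.7 CPM in the same rat, against 31.9 to 35.0 CPM. Lum was 9.93 CPM in sham rat 1, against 0.687 to 3.02 CPM, and Thbs1 was 2.62 CPM in sham rat 5, against 0.467 to 0.968 CPM. In all 5 the rat was the highest of its group.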

How the results depend on the processing

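With the ribosomal RNA share as a covariate, 1 of the 33 genes was under an unadjusted p of 0.05 (Lamb2), beside 2.45% of all rows higher and 1.97% lower. That share follows the group in part, so the fit cannot fully tell it apart from the injury. Without the 2 libraries richest in ribosomal RNA there were 4, beside 3.3% and 2.3%. Scaling by total counts outside ribosomal RNA gave a median of 0.213, against 0.141 over all rows. With it 11 genes were higher and 0 lower at an unadjusted p under 0.05, against 12.5% and 0.464% of rows. DESeq2 called 3 rows at an adjusted p of 0.05, none of them among the 33 genes, where edgeR called 0 (1769 at an unadjusted p under 0.05). Leaving out each rat gave 0 to 12 such rows (5 without sham rat 3, 12 without TBI rat 3), 4 to 11 genes under 0.05 (4 without sham rat 4, 5 without sham rat 2, TBI rat 1 or TBI rat 2; beside 3.27% to 7.03% of all rows higher and 1.91% to 4.41% lower), 1 to 4 genes without overlap (4 without sham rat 3, 2 without TBI rat 4; beside 0.691% to 2.41% and 0.597% to 1.57% of rows) and medians from 0.05 to 0.16. In all 10 of these fits Lamb2, Fbln1, Col1a2 and Thbs2 stayed under 0.05. Serpinh1 did so in 6, Col1a1 in 5, Lamb1 in 4 and Col6a2 in 3. For each of these, and for the reversals that follow, the cause was not tested.

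Over the 33 genes, 13 changed sign under at least 1 alternative and 20 under none. Leaving out each rat, log2 differences ran from -1.26 to 0.0175 for Lum, -0.467 to 0.122 for Col5a1, -0.368 to 0.00535 for Lama1, -0.0349 to 0.170 for Col18a1, -0.161 to 0.0696 for Fn1, -0.0247 to 0.0903 for Bgn, -0.0751 to 0.222 for Col3a1, -0.0672 to 0.189 for Loxl1, -0.0586 to 0.0896 for Lamc1, -0.302 to 0.0491 for Fbn1, -0.0269 to 0.0240 for Col4a1 and -0.0330 to 0.0249 for Sparcl1. The scaling by counts outside ribosomal RNA gave 0.0188 for Nid2, 0.0926 for Fn1 and 0.0746 for Fbn1. The ribosomal RNA covariate gave -0.0847 for Col3a1, -0.178 for Loxl1, 0.0458 for Fbn1 and -0.0187 for Sparcl1. Without the 2 libraries richest in it, Col3a1 was -0.0875, Loxl1 -0.125 and Fbn1 0.0160. Fbn1 was 0.0328 with limma voom, and Sparcl1 was -0.00167 with the size factors of DESeq2, -0.00166 with DESeq2 and -2.96e-04 with limma voom.

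No paired analysis was possible because rats were numbered by sample order alone and the labels tie no sham rat to a TBI rat. Low counts limit Thbs2, Ogn and Fbln5 most.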
